A study of Mus musculus with 9 samples.

Results

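The genes that make, move and break down dopamine were followed in mouse brain tissue labelled mesencephalon, the midbrain. They were 9 genes taken by name from the deposited table of 28991 genes (22036 with Ensembl identifiers), and each name matched 1 line: Th and Ddc of synthesis, Gch1, Pts and Qdpr of cofactor supply, Slc6a3 and Slc18a2 of transport, and Maoa and Maob of breakdown. The libraries came from C57BL/6 mice, 3 in each of 3 groups. These were MPTP+PF4 (MPTP given intraperitoneally for 7 days, with PF4 given intravenously every 3 days over the whole experiment), MPTP (the same toxin for 7 days, without PF4) and Control (saline). MPTP is a neurotoxin used to model Parkinson's disease, and PF4, platelet factor 4, is a chemokine that platelets release. No age, sex or dose was given in the sources used here, all animals were wild type as far as the labels say, and the labels describe midbrain tissue, not sorted neurons. In 6 libraries the factors En1, Foxa1, Foxa2, Pitx3 and Lmx1b, given below, were nearly absent, and summed striatal markers were higher than in the rest.

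Dopamine is made from tyrosine. Tyrosine hydroxylase (Th) carries out the rate-limiting step with tetrahydrobiopterin as its cofactor, and aromatic amino acid decarboxylase (Ddc) then forms dopamine. The vesicular monoamine transporter (Slc18a2) loads dopamine into vesicles, the dopamine transporter (Slc6a3) takes released dopamine back up, and the monoamine oxidases (Maoa, Maob) break it down. The same machinery sets the action of the toxin: monoamine oxidase B, mostly in glia, starts the conversion of MPTP to its active metabolite MPP+, the dopamine transporter carries MPP+ into dopaminergic neurons, and the vesicular transporter can sequester it there.

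The 9 libraries held 32216850 to 36039211 counts. The upper limit that a count of 0 allows, 3 counts, was 0.0832 to 0.0931 CPM (counts relative to the library total) on plain totals. It covers counting error only. All other CPM values are relative to the scaled library total unless stated. The midbrain label was checked against 13 markers of dopaminergic neurons that are not among the 9 genes. All 13 had at least 3 counts in MPTP+PF4 2, Control 2 and Control 3, against 7 to 10 of 13 in the other 6 libraries, Control 1 among them. The floor plate factor Foxa2 had 0 counts in MPTP+PF4 1, MPTP+PF4 3, all 3 MPTP libraries and Control 1, against 3.07 CPM in MPTP+PF4 2, 9.70 CPM in Control 2 and 5.21 CPM in Control 3. Striatal projection neuron markers, 8 genes summed, were lowest where these factors were present, at 5478, 308 and 8058 CPM in MPTP+PF4 libraries 1 to 3, 3938, 1007 and 8180 CPM in MPTP libraries 1 to 3, and 3807, 157 and 150 CPM in Control libraries 1 to 3. In MPTP+PF4 1 and 3, the 3 MPTP libraries and Control 1, all labelled mesencephalon, the factors En1, Foxa1, Foxa2, Pitx3 and Lmx1b reached at most 0.183 CPM. Whether dissection, label or, outside Control 1, the toxin plays a part there was not tested. The rest of the 13 were not all absent in these libraries. Nr4a2, also expressed in other neurons, was at 5.16 to 33.6 CPM in these 6 libraries, with MPTP 3 above Control 2 (18.9 CPM) and Control 3 (20.1 CPM). Over the same 6 libraries Ret was at 6.95 to 40.2 CPM, Slc10a4 at 13.5 to 31.0 CPM, En2 at 0.684 to 1.49 CPM, Lmx1a at 0.0609 to 1.70 CPM and Chrna6 at 0 to 0.684 CPM. The part that tissue composition plays in the differences between groups given here was not tested, and in bulk tissue fewer dopaminergic neurons and less RNA per neuron cannot be told apart. Drd2 and Aldh1a1, both on the dopaminergic list, are also expressed in other brain cells, Drd2 strongly in striatal neurons.

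**Figure D1:**
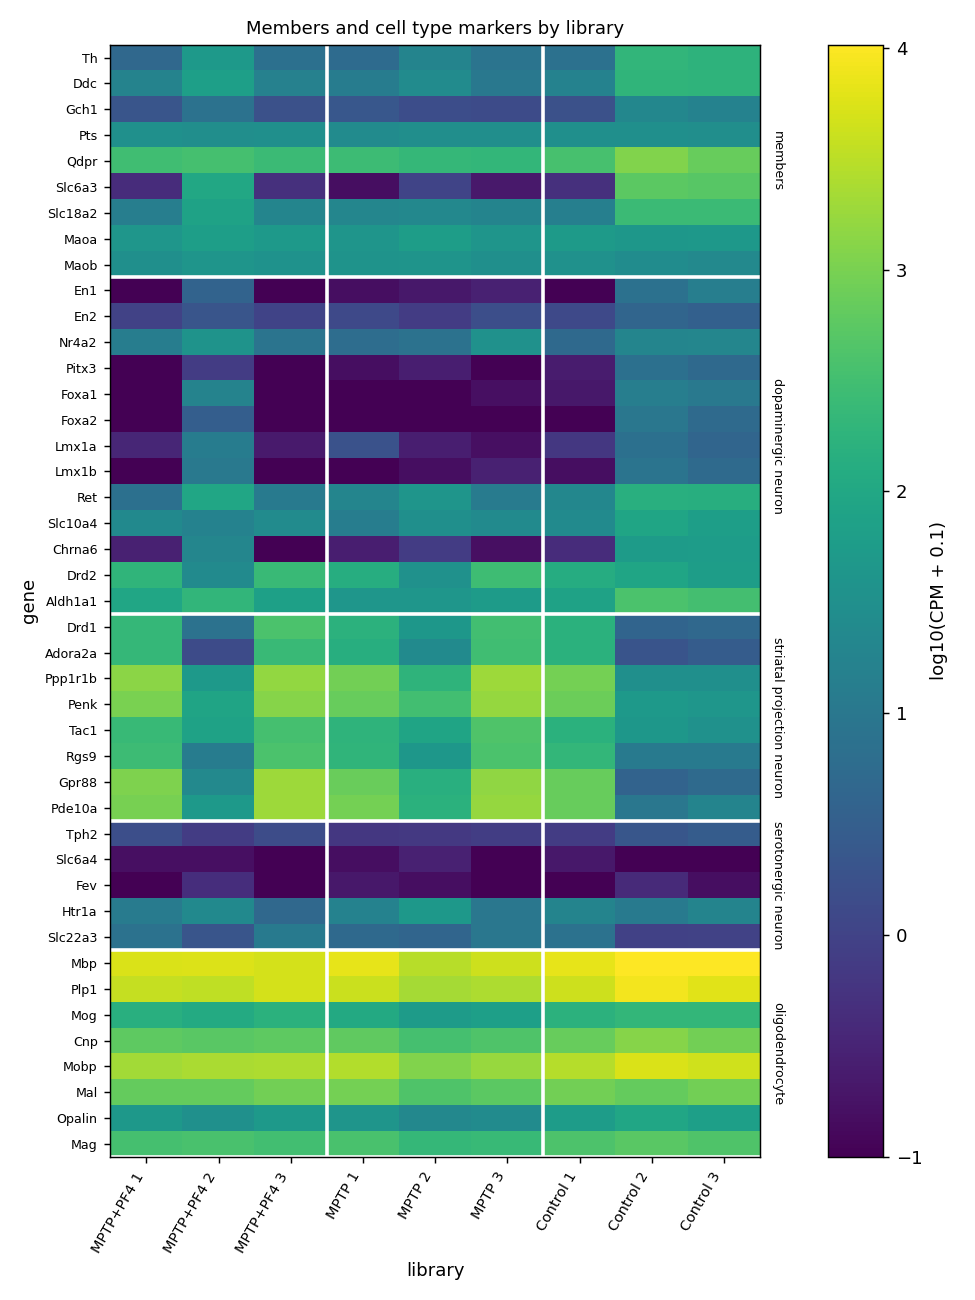
Level of the 9 genes (top block) and of markers of dopaminergic neurons, striatal projection neurons, serotonergic neurons and oligodendrocytes in each library, as log10(CPM + 0.1), with brighter colours for higher values. MPTP+PF4 2, Control 2 and Control 3 are bright for Slc6a3 (102, 574 and 526 CPM) and darker for the striatal markers than the other 6 libraries, though in MPTP+PF4 2 Penk (83.8 CPM) and Tac1 (78.6 CPM) are close to Slc6a3, while Pts, Maoa and Maob have nearly the same colour in all 9 libraries.

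Both synthesis enzymes were low in all MPTP libraries and split the other groups. Th (tyrosine hydroxylase, chromosome 7, 142892752 to 142931128, minus strand, GRCm38) was at 2.53, 28.1 and 3.42 FPKM (fragments per kilobase of transcript, scaled to library size) in MPTP+PF4 libraries 1 to 3, at 3.03, 10.3 and 4.27 FPKM in MPTP libraries 1 to 3, and at 3.92, 96.5 and 92.9 FPKM in Control libraries 1 to 3. Control 1 thus lay among the MPTP libraries and below MPTP 2, and the ranges of all 3 groups overlapped. Ddc, which forms dopamine from L-DOPA and serotonin from 5-hydroxytryptophan (chromosome 11, 11814101 to 11898144, minus strand), was at 8.38, 34.2 and 7.03 FPKM in MPTP+PF4, at 6.54, 13.9 and 4.91 FPKM in MPTP and at 7.96, 88.8 and 91.2 FPKM in Control. The order of the libraries was similar to that of Th, but the distance between the highest and the lowest library was smaller: 18.8-fold for Ddc and 39.4-fold for Th on the CPM scale. MPTP 2 stood above the other MPTP libraries in both enzymes, with 662 Th counts against 203 and 273, and 945 Ddc counts against 460 and 334.

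The genes of the tetrahydrobiopterin pathway did not move as a unit. Gch1, GTP cyclohydrolase 1, which starts the synthesis of the cofactor (chromosome 14, 47153895 to 47189413, minus strand), was at 0.675, 2.75 and 0.519 FPKM in MPTP+PF4, at 0.775, 0.536 and 0.43 FPKM in MPTP and at 0.574, 6.67 and 5.72 FPKM in Control. It followed the library pattern of the synthesis enzymes at a lower level, with 42 to 79 counts in the MPTP libraries and 60, 678 and 598 counts in the Control libraries. Pts, 6-pyruvoyltetrahydropterin synthase, which catalyses the next step (chromosome 9, 50521617 to 50528724, minus strand), was at 29.9, 30.0 and 27.2 FPKM in MPTP+PF4, at 26.2, 30.6 and 27.2 FPKM in MPTP and at 29.4, 27.7 and 27.7 FPKM in Control. It was among the steadiest of the genes tested: the SD of its log2 CPM over the 9 libraries was 0.0847, against a median of 0.437 over all genes tested, and 0.324% of those genes had a smaller one. As a result the FPKM ratio of Gch1 to Pts was 0.0226, 0.0918 and 0.0191 in MPTP+PF4, 0.0296, 0.0176 and 0.0158 in MPTP and 0.0195, 0.241 and 0.206 in Control.

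Qdpr, dihydropteridine reductase, which regenerates the cofactor after each hydroxylation (chromosome 5, 45434021 to 45450236, minus strand), was higher in Control, above all in Control 2 and Control 3. It was at 205, 244 and 168 FPKM in MPTP+PF4, at 198, 162 and 145 FPKM in MPTP and at 247, 758 and 506 FPKM in Control. Every Control library lay above every library of both other groups, Control 1 only just above MPTP+PF4 2. By CPM, 9.19% of all genes were lower without overlap in MPTP than in Control, and 6.78% in MPTP+PF4. On the CPM scale Qdpr was at 301, 339 and 263 CPM in MPTP+PF4, 271, 214 and 211 CPM in MPTP and 353, 1147 and 720 CPM in Control. Oligodendrocyte transcripts, as the summed level of 8 myelin genes, were also higher in every Control library. The list was chosen after its values were seen, so this is a description only. The sum was 13100, 13260 and 14300 CPM in MPTP+PF4, 15540, 7419 and 9795 CPM in MPTP and 16100, 26500 and 23590 CPM in Control. MPTP 1 and Control 2 were the highest of their groups in both this sum and Qdpr. MPTP+PF4 3 had the highest sum of its group and the lowest Qdpr, where the sums lay close together. All 8 genes had a log2 fold change below 0 for MPTP over Control, with a median of −1.1 against 0.013 over all genes tested. Blood transcripts were also highest in Control 2 (5 genes, 6578 CPM summed, against 212 and 793 CPM in Control 1 and 3 and 49.3 to 64.3 CPM in MPTP). In MPTP+PF4 libraries 1 to 3 the blood sum was 403, 83.1 and 211.6 CPM, so MPTP+PF4 1 lay above Control 1. The part of oligodendrocyte or blood transcripts in the level of Qdpr was not tested.

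The transporters differed in how low they went. Slc6a3, the dopamine transporter (chromosome 13, 73536747 to 73578672, plus strand), was at 0.0853, 29.2 and 0.0996 FPKM in MPTP+PF4, at 0.0151, 0.288 and 0.0315 FPKM in MPTP and at 0.109, 150 and 147 FPKM in Control. In counts this was 11, 3551 and 12 in MPTP+PF4, 2, 35 and 4 in MPTP and 14, 19057 and 19077 in Control, so that MPTP 1 lay under the floor of 3 counts. Slc18a2, the vesicular transporter (chromosome 19, 59260896 to 59296012, plus strand), was at 3.34, 20 and 4.496 FPKM in MPTP+PF4, at 5.30, 6.01 and 4.44 FPKM in MPTP and at 3.69, 62.6 and 65.6 FPKM in Control. Unlike Slc6a3 it kept at least 441 counts in every library: 441, 2673 and 579 in MPTP+PF4, 735, 802 and 590 in MPTP and 521, 8720 and 9386 in Control. Control 1 was below all 3 MPTP libraries in Slc18a2.

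**Figure D2:**
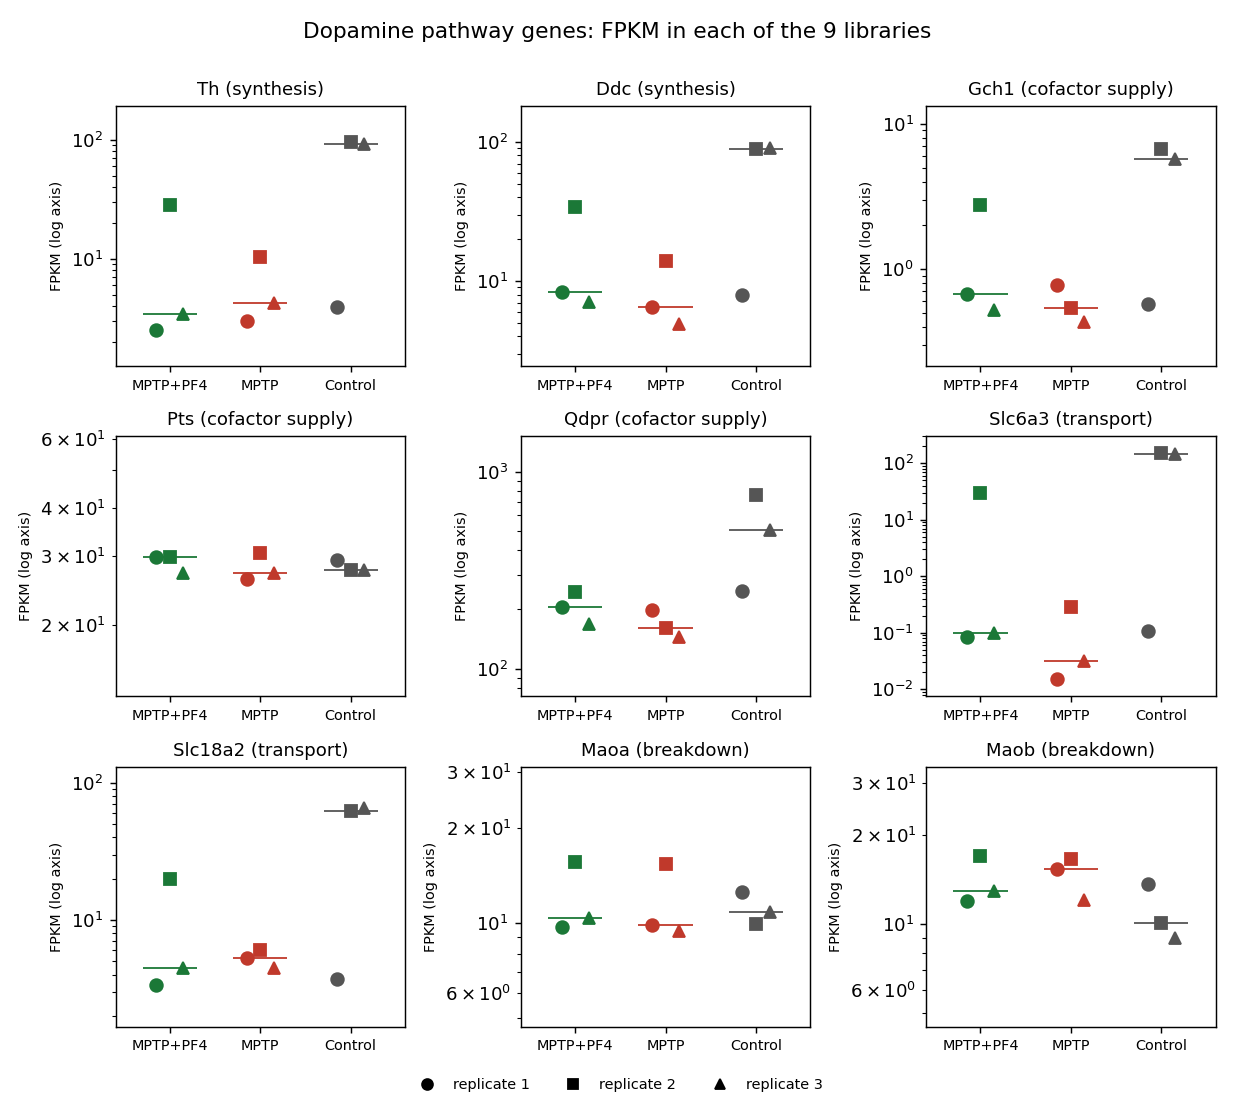
FPKM of each of the 9 genes (log axes, with a scale of their own per panel) in MPTP+PF4, MPTP and Control; each point is 1 library, the marker shape gives the replicate number and the line is the group median. Th, Ddc, Gch1, Slc6a3 and Slc18a2 show Control 2, Control 3 and MPTP+PF4 2 above the rest, and Pts spans only 26.2 to 30.6 FPKM.

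Dopaminergic neurons of the ventral midbrain express both Slc6a3 and Th, and their ratio within a library was compared per length. The FPKM ratio of Slc6a3 to Th was 0.0337, 1.04 and 0.0291 in MPTP+PF4, 0.00499, 0.0279 and 0.00737 in MPTP and 0.0278, 1.56 and 1.58 in Control. The libraries low in Th were thus lower still in Slc6a3. The ratio of Slc18a2 to Th stayed within 0.583 to 1.75 over all 9 libraries and that of Ddc to Th within 0.92 to 3.31. Defining markers of other amine neurons, which also use Th, Ddc or Slc18a2, were low. The serotonin transporter Slc6a4 reached at most 0.192 CPM and the serotonergic factor Fev at most 0.344 CPM, and the noradrenergic markers Slc6a2 and Phox2a had 0 counts in all 9 libraries. Dbh reached at most 0.43 CPM, with 14, 11 and 3 counts in MPTP+PF4 and 0 counts in every MPTP and Control library. The serotonergic list also holds the receptor Htr1a (4.79 to 46.7 CPM) and the transporter Slc22a3 (0.844 to 11.4 CPM), which other cells express too. Tph2, the serotonin-forming hydroxylase of neurons, was at 1.54, 0.688 and 1.37 CPM in MPTP+PF4, 0.55, 0.575 and 0.7 CPM in MPTP and 0.673, 2.11 and 2.73 CPM in Control.

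Since Th, Ddc, Gch1, Slc6a3 and Slc18a2 varied together over the libraries, the sequence just before their RefSeq start sites is shown, from 100 bases before to 10 bases after each start, 5′ to 3′ on the strand of the gene; capitals mark a match to 1 of the motifs searched. Ddc has 2 annotated starts, and both are given. The start used for Th lies inside the span given for the gene above, not at its end.
Th (GRCm38.p6, chr7:142899986-142900095, minus strand): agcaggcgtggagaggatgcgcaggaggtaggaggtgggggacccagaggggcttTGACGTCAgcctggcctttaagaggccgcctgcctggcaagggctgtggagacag
Ddc (GRCm38.p6, chr11:11898135-11898244, minus strand): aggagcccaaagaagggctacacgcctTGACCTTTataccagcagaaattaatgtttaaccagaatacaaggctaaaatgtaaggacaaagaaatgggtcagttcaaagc
Ddc (GRCm38.p6, chr11:11890399-11890508, minus strand): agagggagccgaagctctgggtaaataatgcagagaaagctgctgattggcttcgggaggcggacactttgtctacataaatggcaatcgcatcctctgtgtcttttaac
Slc6a3 (GRCm38.p6, chr13:73536647-73536756, plus strand): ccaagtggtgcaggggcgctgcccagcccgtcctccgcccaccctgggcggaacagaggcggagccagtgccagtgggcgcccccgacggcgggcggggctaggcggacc
Gch1 (GRCm38.p6, chr14:47189404-47189513, minus strand): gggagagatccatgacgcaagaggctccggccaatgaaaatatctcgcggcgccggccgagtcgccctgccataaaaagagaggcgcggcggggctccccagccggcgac
Slc18a2 (GRCm38.p6, chr19:59260778-59260887, plus strand): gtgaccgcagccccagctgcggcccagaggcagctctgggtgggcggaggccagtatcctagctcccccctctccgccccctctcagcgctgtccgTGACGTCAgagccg
The cyclic AMP response element TGACGTCA, a palindrome, was found in the windows of Th, where it begins 45 bases before the start, and of Slc18a2, where it begins 4 bases before the start. It occurs on either strand in 1.79% of 32851 windows of 300 bases (250 before to 50 after a start) in the same table. The NR4A response element AAAGGTCA, bound by the family of the dopaminergic factor Nr4a2, was found in the upstream window of Ddc, on the strand opposite to the gene (its reverse complement is in capitals above), and in 1.51% of all windows. The forkhead motif TGTTTAC and the bicoid-type motif TAATCC, present in 3.65% and 7.06% of all windows, had 0 matches in the 9 windows of the 8 genes in the table, which holds none for Maob. The matches did not overlap each other. A match is not a bound site, and no match says only that these letters are not in the window.

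The monoamine oxidases varied least among the members after Pts. Maoa, which breaks down serotonin, noradrenaline and dopamine (chromosome X, 16619698 to 16687818, plus strand), was at 9.71, 15.6 and 10.4 FPKM in MPTP+PF4, at 9.86, 15.4 and 9.40 FPKM in MPTP and at 12.5, 9.95 and 10.9 FPKM in Control. Replicate 2 was the highest in both toxin groups, and the 3 groups overlapped. Maob, which starts the activation of MPTP (chromosome X, 16709282 to 16817366, minus strand), was at 11.98, 17.1 and 13.0 FPKM in MPTP+PF4, at 15.3, 16.7 and 12.1 FPKM in MPTP and at 13.6, 10.1 and 8.99 FPKM in Control, where Control 1 again lay among the toxin groups. The FPKM ratio of Maoa to Maob was 0.811, 0.914 and 0.799 in MPTP+PF4, 0.644, 0.922 and 0.777 in MPTP and 0.917, 0.984 and 1.21 in Control. Astrocytes carry much of the Maob of the brain; the summed level of 6 astrocyte markers was 3801, 2932 and 3854 CPM in MPTP+PF4, 3819, 2443 and 3675 CPM in MPTP and 2848, 1876 and 2237 CPM in Control. For MPTP over Control 2 of the 6 had a log2 fold change above 0 and 4 below, and their part in the level of Maob was not tested.

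Ordered by mean FPKM, Qdpr led in all 3 groups, at 206 ± 37.9 in MPTP+PF4, 168 ± 27.3 in MPTP and 504 ± 255 in Control (SD, n = 3 each), and its libraries did not overlap those of the next gene in any group. In Control the next places were held by Slc6a3 (99.1 ± 85.8 FPKM), Th (64.4 ± 52.4), Ddc (62.6 ± 47.4) and Slc18a2 (44.0 ± 34.9), which overlapped one another because Control 1 was low in each. Pts (28.3 ± 0.979), Maoa (11.1 ± 1.30), Maob (10.9 ± 2.43) and Gch1 (4.32 ± 3.28) followed. Slc18a2 overlapped Pts, since Control 1 had 3.69 FPKM of Slc18a2, and Maoa overlapped Maob. In MPTP the order was Qdpr, Pts (28.0 ± 2.29 FPKM), Maob (14.7 ± 2.34), Maoa (11.5 ± 3.32), Ddc (8.46 ± 4.81), Th (5.87 ± 3.90), Slc18a2 (5.25 ± 0.784), Gch1 (0.58 ± 0.177) and, last, Slc6a3 (0.112 ± 0.153), with neighbours from Maob to Slc18a2 overlapping. In MPTP+PF4 it was Qdpr, Pts (29.0 ± 1.56 FPKM), Ddc (16.6 ± 15.3), Maob (14.0 ± 2.70), Maoa (11.9 ± 3.23), Th (11.3 ± 14.5), Slc6a3 (9.81 ± 16.8), Slc18a2 (9.28 ± 9.30) and Gch1 (1.31 ± 1.25), and all neighbours from Pts to Slc18a2 overlapped. These orders are levels per length and carry no test.

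MPTP was compared with Control to ask which of the genes differ with the toxin. On TMM-scaled CPM 8 of the 9 genes had lower means in MPTP, with Maob as the exception; Maoa turned to a log2 fold change of 0.042 with library totals alone. No member passed edgeR's quasi-likelihood test at an adjusted p under 0.05, and neither did any of 17285 genes (0% called by edgeR). The log2 fold change was −9.89 (SE 3.15) for Slc6a3, −3.56 (SE 1.25) for Th, −3.16 (SE 0.994) for Slc18a2, −3.01 (SE 0.93) for Ddc, −2.97 (SE 0.905) for Gch1 and −1.67 (SE 0.373) for Qdpr, each with an adjusted p of 0.261 in edgeR. At an unadjusted p under 0.05 these 6 were lower, where 12.9% of all genes were lower by that rule. Pts (−0.10, SE 0.133, adjusted p = 0.639 in edgeR), Maoa (−0.03, SE 0.219, adjusted p = 0.947) and Maob (0.35, SE 0.201, adjusted p = 0.33) had small differences. The median over the 9 genes was −2.97, against 0.013 over all genes tested.

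Other tools and libraries gave other calls for the same counts. DESeq2 called 5 of the 9 genes lower (1.35% of all genes), namely Qdpr, Ddc, Slc6a3, Slc18a2 and Gch1, with adjusted p of 0.00521, 0.0223, 0.00357, 0.0223 and 0.0273; Th had an adjusted p of 0.0891 in DESeq2. The authors' deposited table lists 6 of the 9 as lower with MPTP (5.84% of the genes it compares), which adds Th to those 5, and lists Pts, Maoa and Maob as unchanged. Without Control 1, edgeR called the same 6 lower, where 14% of all genes were lower by that rule, with log2 fold changes of −10.48 for Slc6a3, −4.12 for Th, −3.70 for Slc18a2, −3.54 for Ddc, −3.49 for Gch1 and −2.01 for Qdpr. Control 1 was the lowest Control library in each of these 6, so leaving it out widens the difference and these calls are a description only. With any other single library left out, edgeR called no member. Qdpr was the 1 member whose groups did not overlap, lower in MPTP, as 9.19% of all genes did. By the exact two-sided permutation test of the CPM, whose smallest possible p with 3 libraries against 3 is 0.1, it had p = 0.1, Slc6a3, Ddc, Gch1, Pts and Maob 0.2, Th 0.3, Slc18a2 0.4 and Maoa 1 (9 tests in this comparison).

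With Control 2, Control 3 and MPTP+PF4 2 left out together for the midbrain factor En1, which was above 1 CPM in those libraries alone, MPTP was set against Control 1 alone. This choice was made with the values known, and the libraries left out are also the 3 highest in Th, Ddc, Gch1, Slc6a3 and Slc18a2, so the values are a description of what remains and test nothing. The log2 fold change was then −0.05 for Slc6a3, −0.0022 for Ddc, −0.04 for Gch1, 0.51 for Th, 0.45 for Slc18a2 and −0.61 for Qdpr.

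**Figure D3:**
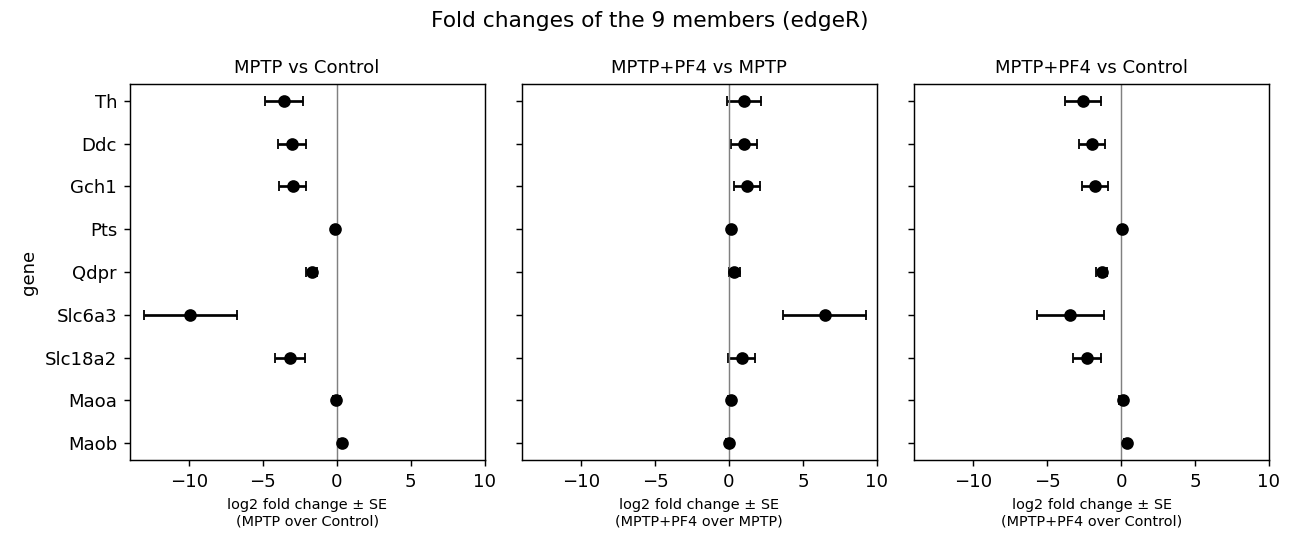
Log2 fold change of the 9 genes in the 3 comparisons by edgeR with all 9 libraries; points are estimates and bars are 1 SE either way. Slc6a3 has both the largest differences (−9.89, 6.47 and −3.42) and the widest bars, and Pts, Maoa and Maob sit near 0 in each panel.

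MPTP+PF4 was compared with MPTP to ask how the tissue of toxin-treated mice differs with PF4. In 5 of these 6 libraries En1, Foxa1, Foxa2, Pitx3 and Lmx1b were at most 0.183 CPM. Whether dissection, label or toxin plays a part in that was not tested. All 9 genes had higher means in MPTP+PF4 on TMM-scaled CPM, but Maob turned to −0.062 with library totals alone. None passed in edgeR, nor did any of all genes (0% called); at an unadjusted p under 0.05 only Slc6a3 was higher, where 0.648% of genes were, and DESeq2 called 0 of the 9 (0.0926% of all genes). The log2 fold change was 6.47 (SE 2.79) for Slc6a3, 1.22 (SE 0.862) for Gch1, 1.04 (SE 0.873) for Ddc, 1.00 (SE 1.15) for Th, 0.87 (SE 0.925) for Slc18a2 and 0.37 (SE 0.363) for Qdpr, and 0.13 (SE 0.133), 0.13 (SE 0.219) and 0.02 (SE 0.2) for Pts, Maoa and Maob, all with an adjusted p of 1 in edgeR. Library MPTP+PF4 2 decided the values of Slc6a3, Gch1, Ddc, Th and Slc18a2. Without it the log2 fold change was −0.05 for Slc6a3, 0.17 for Gch1, 0.02 for Ddc, −0.82 for Th, −0.28 for Slc18a2, −0.059 for Maoa, −0.10 for Maob, 0.28 for Qdpr and 0.16 for Pts. By the exact permutation test Pts had p = 0.1, its CPM in MPTP+PF4 (30.2 to 32.2) lying above that in MPTP (26.3 to 29.7), as 3.04% of genes did; on the FPKM scale its groups overlapped. The other 8 had exact permutation p of 0.2 to 1. The authors' deposited table calls none of the 8 members it compares here (1.2% of its genes are lower and 0.205% higher) and gives no call for Slc6a3.

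**Figure D4:**
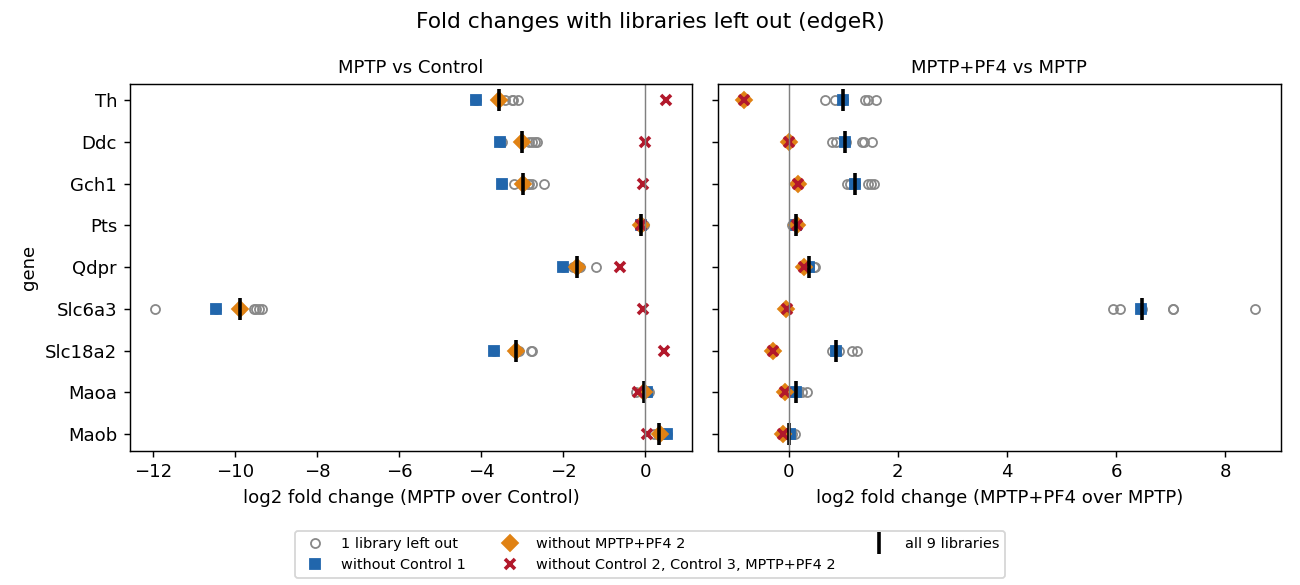
Log2 fold change of the 9 genes (edgeR) with all libraries (black bars), with 1 library left out (grey circles, with Control 1 as blue squares and MPTP+PF4 2 as orange diamonds) and with Control 2, Control 3 and MPTP+PF4 2 left out together (red crosses). On the left, leaving out Control 1 moves Th to −4.12 and leaving out the 3 libraries moves it to 0.51; on the right, Slc6a3 stands at 6.47 with all libraries and at −0.05 without MPTP+PF4 2.

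MPTP+PF4 was also set against Control; it shares its samples with both comparisons above. No member passed in edgeR, nor did any gene (0% called), and DESeq2 called 0 members (0.0579% of all genes). The log2 fold change was −3.42 (SE 2.30) for Slc6a3, −2.57 (SE 1.20) for Th, −2.29 (SE 0.959) for Slc18a2, −1.97 (SE 0.892) for Ddc, −1.76 (SE 0.86) for Gch1 and −1.30 (SE 0.369) for Qdpr, with adjusted p of 0.268 to 0.384 in edgeR. Pts, Maoa and Maob had 0.03, 0.10 and 0.36. Qdpr and Slc18a2 were lower at an unadjusted p under 0.05, as were 12.1% of all genes, and Qdpr alone did not overlap between the groups, lower in MPTP+PF4 as 6.78% of genes were (exact permutation p = 0.1). Without Control 1, edgeR called Qdpr (−1.63), Slc18a2 (−2.84), Ddc (−2.50) and Gch1 (−2.28) lower, where 13.2% of genes were lower by that rule. Control 1 was the lowest Control library in each of these genes, so these calls too are a description only. Without MPTP+PF4 2 no member was called and the log2 fold change was −9.94 for Slc6a3, −4.39 for Th, −3.44 for Slc18a2, −2.99 for Ddc and −2.80 for Gch1. The authors' deposited table lists the same 4 genes as were called without Control 1, Ddc, Gch1, Qdpr and Slc18a2, as lower in MPTP+PF4 (4.77% of the genes it compares).

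MPTP+PF4 2 was the only library given the toxin in which the dopaminergic markers were all present, so its values are set beside those of Control 2 and Control 3, as a description of single libraries with no test. Its CPM was 17.7% and 19.4% of theirs for Slc6a3, 26.5% and 29.4% for Th, 29.2% and 29.6% for Slc18a2, 35.2% and 36.5% for Ddc, 37.7% and 46.8% for Gch1 and 29.5% and 47% for Qdpr. It was 95.9% and 102% for Pts, 143% and 140% for Maoa and 154% and 184% for Maob. The dopaminergic transcription factors did not all follow the members. Pitx3 was at 9.84% and 13.8%, En1 at 52.3% and 27.6%, En2 at 46.5% and 59.3% and Foxa2 at 31.6% and 58.9%. Foxa1 was at 126% and 161%, Lmx1b at 125% and 202%, Lmx1a at 186% and 313% and Nr4a2 at 203% and 191%. The nicotinic subunit Chrna6 was at 34.5% and 32.8% and the receptor tyrosine kinase Ret at 65.1% and 67.4%. The vesicular protein gene Slc10a4 was at 18.8% and 25.7%, Drd2 at 27.4% and 40.4% and Aldh1a1 at 50.2% and 61.5%. Lmx1a, Foxa1 and Nr4a2 are also expressed outside dopaminergic neurons, and dissection, toxin and PF4 cannot be told apart in 1 library.

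**Figure D5:**
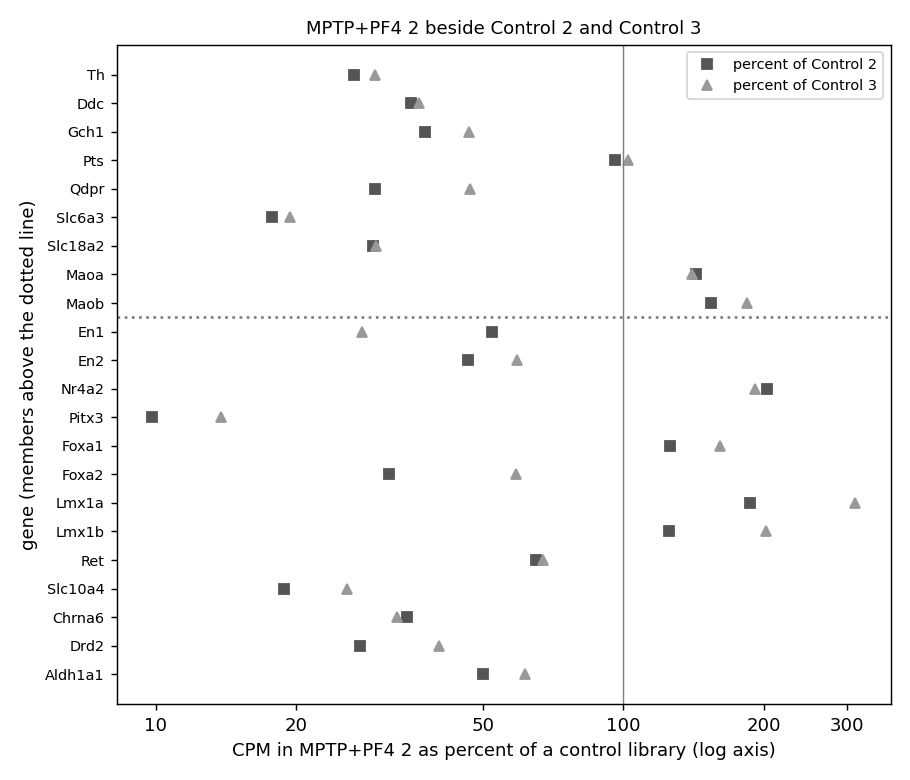
CPM of the 9 genes (above the dotted line) and of 13 dopaminergic markers (below it) in MPTP+PF4 2 as a percentage of Control 2 (squares) and of Control 3 (triangles), on a log axis; 100 marks equal levels. Slc6a3 lies at 17.7% and 19.4% and Pts near 100%. Of the markers, Lmx1a, Lmx1b, Foxa1 and Nr4a2 lie above 100% and the others below it.

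Of 20 other genes of amine metabolism, a list chosen with earlier results of these data known, 15 had enough counts to be tested, and 0 passed in any comparison in edgeR. With MPTP against Control 11 of the 15 were below 0 and 4 above, with a median of −1.02 against 0.013 over all genes, and 6 were lower and 0 higher at an unadjusted p under 0.05, where 12.9% of all genes were lower by that rule. Those with the smallest p were Aldh1a1, a retinaldehyde dehydrogenase that also oxidises the aldehyde formed from dopamine (−2.49, SE 0.602), Sult1a1, a phenol sulfotransferase (−1.52, SE 0.474), and Spr, sepiapterin reductase, the last enzyme of tetrahydrobiopterin synthesis (−1.37, SE 0.451). Spr was at 15.4, 21.6 and 10.5 CPM in MPTP+PF4, 13.2, 16.1 and 14.7 CPM in MPTP and 14.9, 58.9 and 39.9 CPM in Control. With MPTP+PF4 against MPTP the list's median was 0.022 against 0.0159 over all genes, and only Aldh1a1 was higher at an unadjusted p under 0.05 (1.34, SE 0.58), as were 0.648% of all genes. With MPTP+PF4 against Control it was −0.66 against −0.0045.

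Genes most like a member were sought among those tested, by the root mean square difference in log2 CPM over the 9 libraries after each was centred on its own mean; only the 5 members with an SD over 1 were used. Nearest to Slc6a3 were Chrna6, a nicotinic receptor subunit (1.46), Foxa1 (1.72) and Foxa2 (1.80), all of them further away than any neighbour of the other members. Nearest to Th were the transcription factors Sox14 (0.366) and Irx2 (0.475) and Sncg, gamma-synuclein (0.533). Prph, the intermediate filament peripherin, and Tal1, a transcription factor of midbrain GABAergic neurons, were among the 3 nearest of Ddc (0.281 and 0.318), Gch1 (0.392 and 0.317) and Slc18a2 (0.465 and 0.427). Tal1 was at 1.45, 4.90 and 1.10 CPM in MPTP+PF4, 0.962, 1.31 and 1.13 CPM in MPTP and 1.43, 11.1 and 13.2 CPM in Control. Sox14 and Prph rest on low counts, with at most 1.84 and 4.40 CPM, where the prior count of 2 compresses differences. Among the members themselves, Slc18a2 was the nearest to Th (0.51), Ddc (0.388) and Gch1 (0.391).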

How the data were processed

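Trizol RNA of mesencephalon, 1 µg a sample, went into an mRNA library kit, per the labels' protocols. The authors deposited 1 table of whole-number read counts and of FPKM values per gene and library, per the file headers; the authors' FPKM values account for length and depth. The submitters' processing notes name the build mm9; the sources used here give no aligner, counter, annotation or strand, so reads of overlapping or antisense genes cannot be told apart. The table also holds the authors' calls (DESeq2, p of 0.05 and 2-fold, per the file headers); no header says if it is an adjusted p. Of 29001 lines, 10 with broken fields were left out; 6955 loci without a known gene held 0.98% to 1.22% of the counts. Gene positions come from GENCODE on GRCm38 and promoter sequences from RefSeq (GRCm38.p6); no position was converted.

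The main test was edgeR 4.0.16 on the counts (R 4.3.3, TMM, filterByExpr, robust quasi-likelihood fit of all 9 libraries on the group, Benjamini-Hochberg over 17285 genes, threshold 0.05). SEs come from the fold change and the F statistic. CPM uses TMM-scaled totals unless stated, and the floor uses plain totals. Alternatives were DESeq2 1.42.0, other scalings and filters, and left-out libraries. Permutation tests used scipy 1.17.1. The fit was tested on simulated data. The replicates are separate mice per the series' design. No 2 libraries of a group agreed within sampling noise (chi-square per degree of freedom 54.9 or more). The genes named were all 9 members, pathway genes with the smallest p, the defining markers and some of the 3 nearest genes of each variable member. Members and lists were chosen with earlier results of these data known. The values of 1 gene of the list are not reported here.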

Additional observations from a re-analysis of the deposited data

How the results depend on the processing

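No member was called under other size factors, library totals alone, other filters, the 6 samples of a comparison alone or robust estimation off; these and the replicate block left the directions of Th, Ddc, Gch1, Slc6a3, Slc18a2 and Qdpr as reported. DESeq2 called 5 members and 287 genes for MPTP against Control, and 16 and 10 genes in the other comparisons in the order given. Leaving out 1 library gave 0 to 6 members and 0 to 4577 genes for MPTP against Control, and 0 to 4 members and 0 to 4539 genes for MPTP+PF4 against Control; each maximum was without Control 1. Some differences changed sign: those of Maoa and Maob, and, where libraries were left out, larger ones. With library totals alone Maoa had 0.042 (MPTP against Control) and Maob −0.062 (MPTP+PF4 against MPTP). The mean difference of Maoa for MPTP against Control was 1.44 on plain CPM and 0.432 on FPKM, and that of Maob for MPTP+PF4 against MPTP −1.55 and −0.686. With 1 library left out, log2 fold changes for MPTP against Control spanned −0.22 to 0.10 for Maoa (CPM difference −7.62 to 2.51). For MPTP+PF4 against MPTP they spanned −0.82 to 1.60 for Th (−4.65 to 18.7), −0.050 to 8.54 for Slc6a3 (−0.0083 to 50.7), −0.28 to 1.26 for Slc18a2 (−3.57 to 28.0), −0.059 to 0.33 for Maoa (−1.95 to 11.2) and −0.10 to 0.11 for Maob (−2.36 to 2.93). For MPTP+PF4 against Control Maoa spanned −0.085 to 0.22 (−2.88 to 8.24). Without Control 2, Control 3 and MPTP+PF4 2, 1 gene was called for MPTP against Control, where Th had 0.51 and Slc18a2 0.45, and 1 for MPTP+PF4 against Control, where Ddc had 0.014, Gch1 0.13, Slc18a2 0.17, Maoa −0.23 and Maob −0.046. For MPTP+PF4 against MPTP it gave −0.82 for Th, −0.038 for Slc6a3, −0.28 for Slc18a2, −0.058 for Maoa and −0.10 for Maob. The cause of these changes was not tested.

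Replicate numbers are shared between groups, but same-numbered libraries deviated together in some pairs and not in others (correlations −0.122 to 0.174 for MPTP with Control, 0.0872 to 0.519 for MPTP+PF4 with MPTP and −0.291 to 0.389 for MPTP+PF4 with Control), so the numbers were not taken as a pairing. With the replicate block 0 members and 0 genes were called in each comparison; Slc6a3 had −10.20 and Th −3.03 for MPTP against Control. With 3 libraries a group the exact permutation test cannot go below 0.1, and Slc6a3 in MPTP 1 was under the floor.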
